A study of Rattus norvegicus with 31 samples.

Results

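The genes described here encode voltage-gated sodium and calcium channels, cation channels of the TRP family, and the ryanodine and IP3 receptors that release calcium from internal stores. Members were taken by gene symbol: Scn followed by a digit, any symbol that begins with Cacn, Trpc, Trpm or Trpv followed by a digit, Ryr1 to Ryr3 and Itpr1 to Itpr3. They came to 31 of the 9037 genes that had a probeset (the group of array probes that measures 1 transcript) named for 1 gene only, and to 41 of the 16204 probesets. In the current rat annotation 69 protein-coding symbols fit the same pattern. Trpc4ap fits the pattern by its spelling and encodes a protein that binds TRP channels, and it was kept as a class of 1 gene.

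Sodium channel alpha subunits form the pore that carries the action potential, and their beta subunits set its gating and its place in the membrane. Calcium channel alpha1 subunits admit calcium at presynaptic terminals and on dendrites, with alpha2delta and beta subunits controlling how many channels reach the surface. TRP channels of the TRPC group open after receptor stimulation, while ryanodine and IP3 receptors pass calcium from the endoplasmic reticulum to the cytosol. In hippocampal CA3 these proteins shape bursting, transmitter release and synaptic plasticity, and calcium handling is a long-standing topic in the ageing hippocampus.

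The RNA came from the CA3 of 31 aged male Long-Evans rats, an outbred strain, at about 2 years of age. Aged unimpaired (AU) rats had learned a hidden-platform water maze within the range of young rats, and aged impaired (AI) rats had not. About 1 month later every rat swam to a visible platform, either fixed among prominent cues (spatial, S) or moved between trials with those cues removed (non-spatial, NS), and a probe trial without the platform followed before tissue was taken. The groups were AU-S with 8 rats, AI-S with 8, AU-NS with 8 and AI-NS with 7, and AU-act with 16 and AI-act with 15 pool the tasks. Each array held the hand-dissected CA3 of both hemispheres of 1 rat, so replicates are separate animals. All rats had swum, and no young or untrained rat enters a comparison here, so every difference is between trained aged groups. Levels in tissue cannot tell apart fewer cells of a type and less RNA per cell.

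Values are log2 signals, so a difference of 1 is a doubling, and signals of different probesets are not compared with each other. The median of all probesets lay between 8.97 and 9.14 on the 31 arrays. In AI rats the 3′ probesets of the Gapdh and beta-actin controls exceeded their 5′ probesets by more, a sign of RNA that is degraded or copied over a shorter length, with a mean of 1.45 ± 0.0968 in AU-act and 1.59 ± 0.125 in AI-act (log2, SD, n = 16 and 15, permutation test, p = 0.00096). Within the tasks the AU minus AI difference of this measure was -0.11 after S training (exact permutation test, p = 0.0502) and -0.18 after NS training (exact permutation test, p = 0.00591). The hexokinase controls gave a pooled difference of -0.38 (permutation test, p = 1e-04). The CA3 list held 7 symbols, Nectin3 being there also under its former symbol Pvrl3, and 5 genes were measured. Their mean level ran from 10.77 to 11.07 in AU-act and from 10.71 to 11.05 in AI-act. None of 10 marker lists for hippocampal subfields and other cell types passed its test, the closest being 3 CA2 markers with a difference of 0.14 (permutation test, adjusted p = 0.199). As a single marker only the GABA-synthesizing enzyme Gad2 passed limma, with a difference of 0.48 (adjusted p = 0.0391). Of the 7 interneuron markers, Gad2 among them, 4 were above 0, and their mean level differed by 0.035 (permutation test, adjusted p = 0.73).

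AU-act against AI-act asks which channels differed between unimpaired and impaired rats whatever the task. No channel gene passed the threshold. The differences were small: the 31 genes, each at its brightest probeset (highest mean over the arrays), lay between -0.13 for the channel kinase Trpm7 and 0.30 for the sodium channel Scn8a, with a median of 0.043 against 0.0032 for all 9037 genes. Scn8a had a mean near the lowest of the table, and with genes of a mean under 6 left out the highest difference was 0.26. The difference was above 0 for 21 members (67.7%) and for 51.7% of all genes. Calcium channel pore, alpha2delta and beta subunits were above 0 in 9 of 10 genes, and gamma subunits in 1 of 2. Cacna2d3 turned under quantile normalization, and Cacna1h, at 0.02, turned when any of 10 single arrays was left out. Both also turned with either RNA control difference in the fit, described below. TRP channels were above 0 in 3 of 7, and in 2 with arrays centred on their median or quantile normalized.

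limma called 0 of the 31 genes and 0 of the 41 probesets at an adjusted p of 0.05, in a table where 5% of all probesets were called higher and 0.512% lower, and 2.05% and 0.31% of genes at their brightest probeset. At an unadjusted p under 0.05, limma marked 6 members, or 19.4%, as higher and 0 as lower, against 9.42% higher among all genes. Over all probesets it marked 9 of the 41, each higher, against 19.5% of all probesets in either direction. SAM, a permutation-based moderated test, called 0 genes at the brightest probeset and 1 of the 41 probesets, described below with Scn2b. Over all 16204 probesets SAM called 887. At the brightest probeset the 95% interval of the fold lay within 1.2-fold in both directions for 20 of 31 genes. It lay within 1.5-fold for 30, Scn8a being the exception. Over all 41 probesets these counts were 27 and 38. The intervals come from the fit without RNA quality and do not bound what it may hide. Both fold limits were picked after the values were seen.

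**Figure D1:**
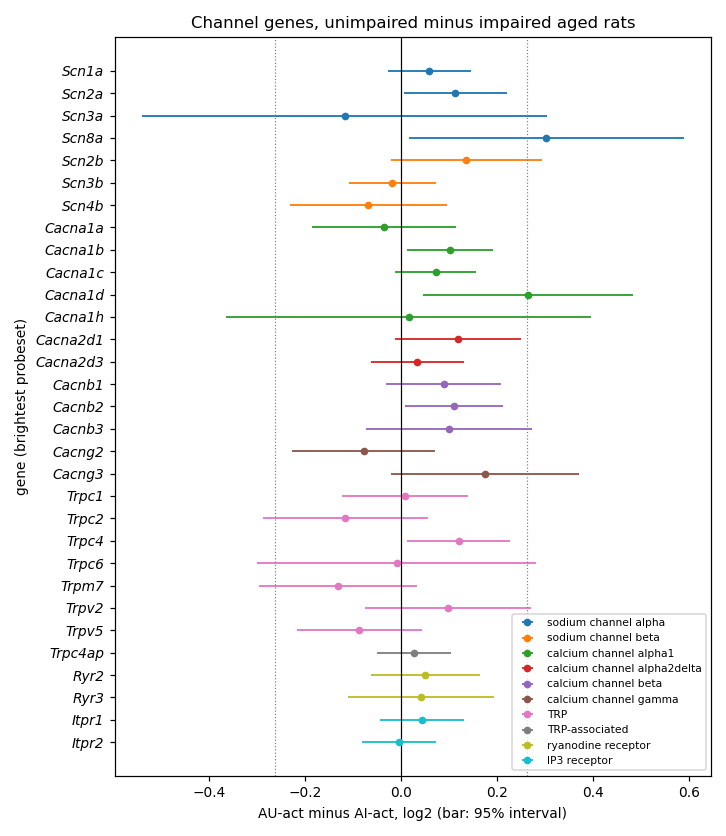
Difference in log2 signal between AU-act (16 rats) and AI-act (15 rats) for the 31 channel genes at their brightest probeset, with the 95% interval from limma as a bar and colours for the role classes. The dotted lines mark a fold of 1.2 in either direction. Of the 31 intervals 6 lie wholly above 0 and 0 wholly below it, and Scn8a and Scn3a have the widest intervals among the sodium channels.

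The RNA control difference moved with phenotype, so the members were also read with it in the fit. With the Gapdh and beta-actin difference as a covariate the members' median became 0.0027, with 17 of 31 above 0, and with the hexokinase difference it became -0.019, with 15 above 0. The covariates also took the calls over all probesets from 893 to 1 and to 0. RNA quality and phenotype overlap in these rats, and their parts in the members' shift cannot be told apart.

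Among the sodium channel alpha subunits 3 of 4 genes were above 0, with a median of 0.09. Scn8a encodes a main sodium channel of the axon initial segment and nodes. Its mean over the 31 arrays was 5.09, near the smallest probeset mean of the table, 5.00. The Scn8a signal ran from 4.74 to 6.16 with a median of 5.15 in AU-act and from 4.37 to 6.04 with a median of 4.81 in AI-act. The groups overlapped, with 1 AU rat above every AI rat and 5 AI rats below every AU rat. The difference was 0.30 (1.23-fold, 95% interval 1.01 to 1.5-fold, SE 0.14, limma, adjusted p = 0.224), and 13 of 16 AU rats lay above the AI mean. With the RNA controls as covariates the Scn8a difference was 0.19 for Gapdh and beta-actin and -0.03 for hexokinase.

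Scn2a encodes another major sodium channel of excitatory neurons. The lowest, median and highest signals were 11.34, 11.54 and 11.83 in AU-act and 11.07, 11.43 and 11.73 in AI-act. Again 13 of 16 AU rats lay above the AI mean, with a difference of 0.11 (SE 0.05, limma, adjusted p = 0.227). With the RNA controls as covariates the Scn2a difference was 0.14 for Gapdh and beta-actin and 0.13 for hexokinase. Scn1a, which is prominent in inhibitory interneurons, differed by 0.06 (SE 0.04, adjusted p = 0.477), and its 95% interval of 0.981 to 1.11-fold was among the narrow ones.

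Scn3a, a sodium channel that predominates before birth, varied most among rats of the 31 genes at their brightest probesets. Its residual SD of 0.61 exceeded that of 98.5% of all probesets. The signal was at or under 7.53 in 6 rats, 3 of them AU-S and 1 in each other group, and from 8.02 up in the other 25. The pooled difference was -0.12 with a 95% interval of 0.688 to 1.24-fold (limma, adjusted p = 0.818). This gene was singled out after its values were seen.

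Of the sodium channel beta subunits 1 of 3 genes was above 0 at its brightest probeset. Scn2b gave 12.41, 12.79 and 13.14 as lowest, median and highest in AU-act and 12.36, 12.69 and 13.19 in AI-act, a difference of 0.14 (SE 0.08, limma, adjusted p = 0.336). Its second probeset, 1369311_at, was dimmer and far more variable. There the values were 4.94, 5.89 and 7.95 in AU-act and 2.22, 5.34 and 8.01 in AI-act, and 6 AI rats lay below every AU rat.

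At that second Scn2b probeset the difference was 0.95 (1.94-fold, 95% interval 1.11 to 3.39-fold, SE 0.40, limma, adjusted p = 0.167), and 15 of 16 AU rats lay above the AI mean. SAM called it at an adjusted p of 0.0227, as 1 of 887 calls over all 16204 probesets. The residual SD was 1.16, above that of 99.8% of all probesets. Both Scn2b probesets ranked rats alike within groups (r = 0.66, rho = 0.64, n = 31, values less their group mean, permutation p = 0.00012 and 0.00039, adjusted over 12 pairs 0.00036 and 0.00156, r = 0.59 without the 2 farthest rats). With the RNA controls as covariates the difference was 0.38 for Gapdh and beta-actin and 0.06 for hexokinase.

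Scn3b differed by -0.02 (SE 0.04, adjusted p = 0.877 in limma) at its brightest probeset and by 0.12 (adjusted p = 0.311) at the other. Scn4b, the subunit linked to resurgent sodium current, differed by -0.07 (SE 0.08, adjusted p = 0.697). All of their 95% intervals held 0.

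**Figure D2:**
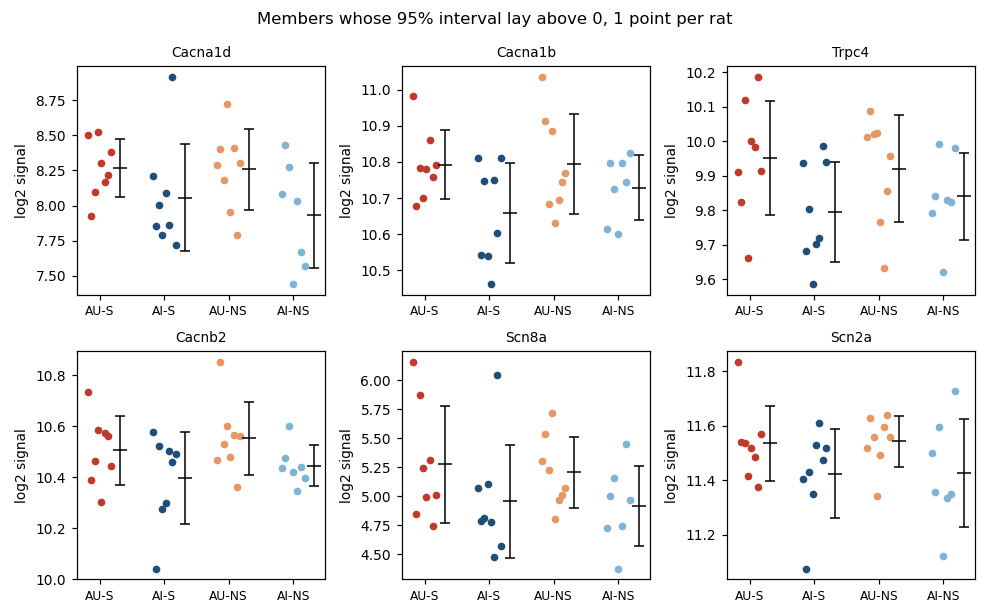
Log2 signal of the 6 members whose 95% interval for AU-act minus AI-act lay above 0, 1 point per rat by group, with the group mean and SD beside the points. The groups overlap in every panel, and single AI-S rats stand high in Cacna1d and in Scn8a.

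The calcium channel alpha1 subunits were above 0 in 4 of 5 genes, with a median of 0.07. Cacna1d encodes an L-type channel that opens at fairly negative voltages, and it had the smallest adjusted p of the 31 genes at the brightest probeset. The signal ran from 7.79 to 8.72 with a median of 8.30 in AU-act and from 7.44 to 8.92 with a median of 8.01 in AI-act. No AU rat exceeded the highest AI rat, AI-S replicate 7, and 4 AI rats lay below every AU rat. The difference was 0.26 (1.2-fold, 95% interval 1.03 to 1.4-fold, SE 0.11, limma, adjusted p = 0.157).

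Without AI-S replicate 7 the Cacna1d difference was 0.33 (limma, adjusted p = 0.0245), under the threshold. In that fit 2 of 41 probesets passed, Cacna1d and the second Scn2b probeset. Over all 16204 probesets, leaving out 1 array gave 621 to 1181 calls, against 893 with every array. The RNA control difference of AI-S replicate 7 was 1.53, below the AI-act mean. With the RNA controls as covariates the Cacna1d difference was 0.10 for Gapdh and beta-actin and -0.03 for hexokinase.

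Cacna1b encodes the N-type channel of presynaptic terminals. Its signal gave 10.63, 10.78 and 11.04 as lowest, median and highest in AU-act and 10.46, 10.74 and 10.83 in AI-act. At the ends 5 AU rats lay above every AI rat and 6 AI rats below every AU rat. The difference was 0.10 (1.07-fold, 95% interval 1.01 to 1.14-fold, SE 0.04, limma, adjusted p = 0.181). It was 0.10 with the Gapdh and beta-actin covariate and 0.09 with the hexokinase covariate. Cacna1c, the main L-type channel of brain and heart, differed by 0.07 (SE 0.04, adjusted p = 0.343), and by 0.08 (adjusted p = 0.538) at its other probeset. The T-type channel Cacna1h differed by 0.02, a sign that both RNA covariates turned, with a 95% interval of 0.777 to 1.32-fold and a residual SD above that of 98% of probesets.

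Cacna1a encodes the P/Q-type channel that drives fast transmitter release, and its 3 probesets did not go together. The brightest, 1395062_at, differed by -0.04 (SE 0.07, limma, adjusted p = 0.845), with values of 8.39 to 9.20 in AU-act and 8.51 to 8.96 in AI-act. The probeset 1367821_a_at differed by 0.25 (SE 0.11, adjusted p = 0.213), and 1386939_a_at by 0.50 (SE 0.28, adjusted p = 0.346). Across rats, with group means removed, the latter pair varied together (r = 0.88, rho = 0.88, n = 31, permutation p = 1e-05 for each, the smallest these permutations give, adjusted 6e-05 and 0.00012, r = 0.86 without the 2 farthest rats). Neither correlation with the brightest probeset passed, both being below 0 (r = -0.16 with permutation p = 0.472 and r = -0.36 with permutation p = 0.0671, adjusted 0.515 and 0.0895, rho = -0.24 and -0.35 with permutation p = 0.237 and 0.0693, adjusted 0.301 and 0.119), and r was -0.31 and -0.41 without the 2 farthest rats.

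**Figure D3:**
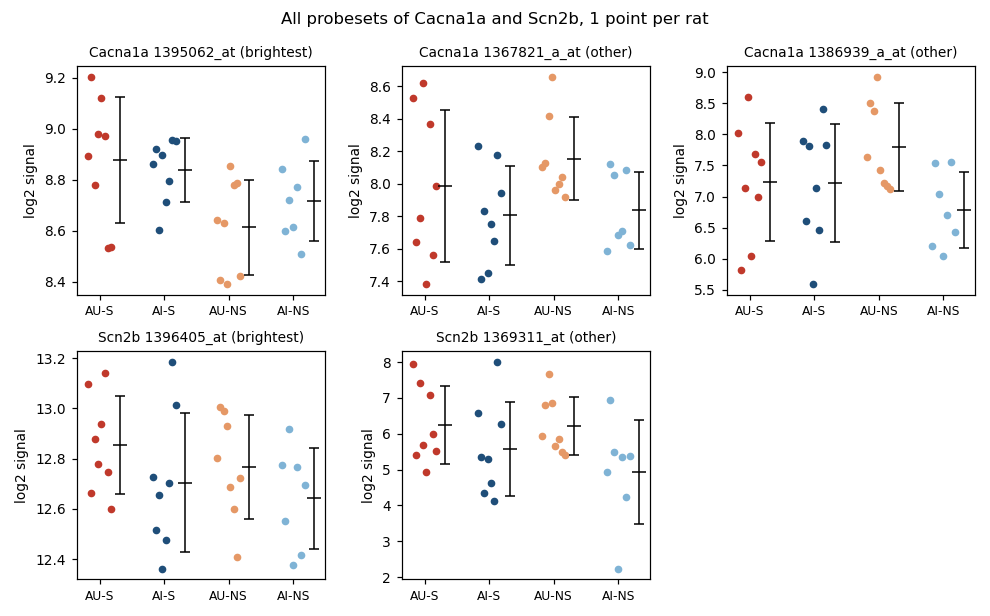
Log2 signal at each probeset of Cacna1a and Scn2b, 1 point per rat by group, with the group mean and SD beside the points, each panel on its own scale. At Cacna1a 1386939_a_at the AU-NS rats run from 7.13 to 8.93 and the AI-NS rats from 6.04 to 7.55, and the AU-S and AI-S rats overlap.

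The same pair of Cacna1a probesets moved with the RNA controls. Of 41 member probesets 31 (75.6%) correlated negatively with the Gapdh and beta-actin difference within groups, against 54.8% of the 16200 probesets outside that measure. Pearson's r passed adjustment over all 16200 at 2 member probesets, both of Cacna1a and both negative, against 3.4% of all probesets negative at that level. By rho the brightest probesets of Cacng3 and Cacna2d3 passed as well (rho = -0.58 and -0.54, permutation p = 0.00132 and 0.00219, adjusted 0.0367 and 0.0491). Their r did not pass (r = -0.48 and -0.52, adjusted permutation p = 0.155 and 0.0898). The share of all probesets passing by rho was not counted. For 1386939_a_at r was -0.61 and rho -0.68 (n = 31, permutation p = 0.00011 and 5e-05, adjusted 0.00833 and 0.00491), and r was -0.65 without the 2 farthest rats. For 1367821_a_at r was -0.57 and rho -0.63 (permutation p = 0.00025 and 0.00016, adjusted 0.0143 and 0.00929), and -0.53 without those rats. The brightest probeset gave r = 0.33 and rho = 0.29 (permutation p = 0.0736 and 0.121, adjusted 0.345 and 0.44), which dropped to 0.11 without them. With that covariate the AU-act minus AI-act difference was 0.0016 at 1367821_a_at and -0.17 at 1386939_a_at, and at the brightest probeset it turned from -0.04 to 0.07. The hexokinase covariate turned the brightest probeset to 0.05 and 1386939_a_at to -0.11. Cacna1a was chosen for this description after its values were seen.

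**Figure D4:**
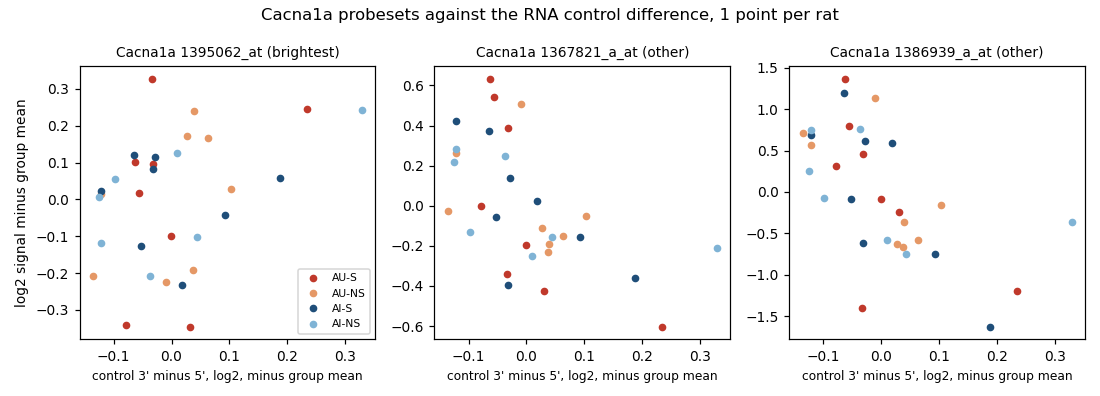
Log2 signal of the 3 Cacna1a probesets, less the group mean, against the 3′ over 5′ excess in the Gapdh and actin controls, also less the group mean, 1 point per rat. Points fall from left to right at 1367821_a_at and 1386939_a_at and show no such fall at the brightest probeset.

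Both alpha2delta genes were above 0. Cacna2d1, which encodes the target of gabapentin, ran from 10.47 to 11.06 with a median of 10.75 in AU-act and from 10.31 to 10.93 with a median of 10.67 in AI-act. The difference was 0.12 (SE 0.06, limma, adjusted p = 0.312). Cacna2d3 differed by 0.03 (SE 0.05, adjusted p = 0.757), a sign that both RNA covariates and quantile normalization turned.

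The 3 beta subunit genes, which carry the pore subunits to the membrane, lay between 0.09 and 0.11. Cacnb2 had 10.30, 10.55 and 10.85 as lowest, median and highest in AU-act and 10.04, 10.44 and 10.60 in AI-act, and 13 of 16 AU rats lay above the AI mean. The difference was 0.11 (1.08-fold, 95% interval 1.01 to 1.16-fold, SE 0.05, limma, adjusted p = 0.213). Its other probesets went the same way, by 0.13 at 1388023_a_at, which had the smallest limma adjusted p of all 41 probesets at 0.11, and by 0.08 at 1374717_at (adjusted p = 0.516). At the brightest Cacnb2 probeset the difference was 0.04 with the Gapdh and beta-actin covariate and 0.08 with the hexokinase covariate.

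The 3 Cacnb2 probesets also moved together among rats. Their pairwise r was 0.75, 0.81 and 0.51, with rho 0.59, 0.75 and 0.35 (n = 31, group means removed, permutation p = 6e-05, 1e-05 and 0.0111 for r, adjusted 0.00024, 6e-05 and 0.0221, and 0.00153, 2e-05 and 0.0791 for rho, adjusted 0.00459, 0.00012 and 0.119). Without the 2 farthest rats r was 0.63, 0.70 and 0.29, so the last pair rested on those rats. Cacnb1 differed by 0.09 (SE 0.06, limma, adjusted p = 0.43) and Cacnb3 by 0.10 (SE 0.09, adjusted p = 0.561). With the Gapdh and beta-actin covariate these were 0.07 and 0.15, and with the hexokinase covariate 0.07 and 0.18.

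Cacng2 (stargazin) and Cacng3 are named as calcium channel gamma subunits and are known mainly as auxiliary subunits of AMPA receptors. Cacng3 ran from 8.24 to 9.11 with a median of 8.84 in AU-act and from 8.08 to 9.24 with a median of 8.54 in AI-act, a difference of 0.17 (SE 0.10, limma, adjusted p = 0.323). With the RNA controls as covariates the Cacng3 difference was 0.01 for Gapdh and beta-actin and 0.06 for hexokinase. Cacng2 differed by -0.08 (SE 0.07, adjusted p = 0.61) at the brightest probeset and by 0.02 (adjusted p = 0.939) at the other.

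Of the 7 TRP channels Trpc4 was furthest above 0. It belongs to the receptor-operated TRPC channels, and gave 9.63, 9.97 and 10.19 as lowest, median and highest in AU-act and 9.59, 9.82 and 9.99 in AI-act. At the upper end 7 AU rats lay above every AI rat, and the lower ends overlapped. The difference was 0.12 (1.09-fold, 95% interval 1.01 to 1.17-fold, SE 0.05, limma, adjusted p = 0.196). It was 0.10 with the Gapdh and beta-actin covariate and 0.07 with the hexokinase covariate.

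Trpm7, a channel joined to a kinase domain, was furthest below 0. The signal ran from 11 to 11.62 with a median of 11.23 in AU-act and from 10.66 to 11.85 with a median of 11.33 in AI-act, so AI rats were spread on both sides. The difference was -0.13 (SE 0.08, limma, adjusted p = 0.386) and 2 of 16 AU rats lay above the AI mean. Its other probeset gave 0.04 (adjusted p = 0.815), and the pair did not go together among rats (r = 0.036, rho = 0.0040, n = 31, permutation p = 0.855 and 0.985, adjusted 0.855 and 0.985).

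Trpc2, known for pheromone sensing in the vomeronasal organ, differed by -0.12 (SE 0.08, limma, adjusted p = 0.482). Its mean of 5.21 over the arrays lay near the smallest probeset mean of the table, 5.00. The highest AI-NS rat was at 6.10 with an AI-NS median of 5.25, and no AU rat passed 5.34. Trpc1, Trpc6, Trpv2 and Trpv5 lay between -0.09 and 0.10, and none passed. The signs of Trpc1 and Trpc6 turned under several alternatives. Trpc4ap differed by 0.03, with a 95% interval of 0.966 to 1.07-fold.

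The store-release channels were nearly level between the phenotypes. Ryr2, the main ryanodine receptor of heart and also abundant in hippocampus, ran from 13.44 to 13.94 with a median of 13.74 in AU-act and from 13.43 to 13.97 with a median of 13.69 in AI-act. The difference was 0.05 (95% interval 0.957 to 1.12-fold, SE 0.06, limma, adjusted p = 0.675), and 0.02 at its other probeset (adjusted p = 0.917). Ryr3 differed by 0.04 (95% interval 0.927 to 1.14-fold, adjusted p = 0.817).

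Itpr1, the main neuronal IP3 receptor, ran from 12.84 to 13.24 with a median of 13.02 in AU-act and from 12.79 to 13.32 with a median of 12.97 in AI-act. The difference was 0.04 (95% interval 0.97 to 1.09-fold, SE 0.04, limma, adjusted p = 0.635). Itpr2, which is prominent in astrocytes, was at -0.0045 (95% interval 0.946 to 1.05-fold, adjusted p = 0.969), with a residual SD in the lowest 8.4% of probesets. Its signal was dim, with a mean of 6.15 over the arrays where the smallest probeset mean was 5.00. For these 4 genes the 95% interval lay within 1.2-fold in both directions, and the RNA covariates turned the sign of Ryr2, Ryr3 and Itpr1.

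Proteins that bind, place or regulate these channels were listed as partners. The list held sodium channel binding fibroblast growth factors, ankyrins, the Nalcn leak complex, store-operated entry proteins, FKBP and Homer proteins, junctophilins and calmodulins. Of 39 genes 32 were measured, and limma called 0, where 2.05% of all genes were called higher and 0.31% lower. The difference was above 0 for 25 of the 32, against 51.7% of all genes. Its median was 0.04, against 0.0032 for all genes. No RNA covariate value was taken for the partners. Sptbn4, the spectrin of the axon initial segment, had the smallest adjusted p with a difference of 0.14 (SE 0.06, adjusted p = 0.191), followed by the calcium-binding protein Cabp1 with 0.15 (SE 0.09, adjusted p = 0.347). The ankyrin Ank3, which anchors sodium channels there, was at -0.00215 (adjusted p = 0.987), and the entry sensor Stim1 at 0.08 (adjusted p = 0.48).

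AU-S against AI-S asks about the phenotype after spatial training. The members lay between -0.29 for Scn3a and 0.32 for Scn8a, with a median of 0.04 and 22 of 31 above 0 (51.5% of all genes). All 5 alpha1 and all 3 beta subunits of the calcium channels were above 0. limma called 0 members at an adjusted p of 0.1. At that level it called 0.389% of all probesets higher and 0.0247% lower, and 0.0775% and 0.0111% of genes at their brightest probeset. SAM called 0 members and 182 of all 16204 probesets.

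Cacna1b was the 1 member with an unadjusted p under 0.05 in limma, where 4.91% of genes were higher at that level (12.3% of all probesets in either direction). Its signal gave 10.68, 10.78 and 10.98 as lowest, median and highest in AU-S and 10.46, 10.68 and 10.81 in AI-S, and every AU-S rat lay above the AI-S mean. The difference was 0.13 (1.10-fold, 95% interval 1.0 to 1.2-fold, SE 0.06, limma, adjusted p = 0.406). Trpc4 differed by 0.16 (SE 0.08, adjusted p = 0.436) and Itpr1 by 0.09 (SE 0.05, adjusted p = 0.446).

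AU-NS against AI-NS asks the same after non-spatial training, in rats that enter no S group. The members lay between -0.17 for Trpc2 and 0.34 for Cacng3, with a median of 0.05 and 18 of 31 above 0 (52.5% of all genes). All 4 sodium channel alpha subunits were above 0, and TRP channels in 2 of 7 genes. limma and SAM called 0 members at an adjusted p of 0.1, and each called 0% of all probesets. The limma total was 163 when all 4 groups shared 1 fit and 40 with array weights, none of them a member.

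Cacng3 was the 1 member marked by limma at an unadjusted p under 0.05 at the brightest probeset, against 4.82% of all genes higher. It ran from 8.24 to 9.02 with a median of 8.87 in AU-NS and from 8.08 to 9.02 with a median of 8.45 in AI-NS. The difference was 0.34 (1.27-fold, 95% interval 1.04 to 1.54-fold, SE 0.13, limma, adjusted p = 0.347), against 0.03 after S training. In the pooled comparison the Gapdh and beta-actin covariate took Cacng3 from 0.17 to 0.01. Cacna1d differed by 0.33 (SE 0.16, adjusted p = 0.448) and by 0.21 after S training.

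Of the 41 probesets 6 had an unadjusted p under 0.05 with NS rats (11.5% of all probesets), and Cacna1a 1386939_a_at came first with an adjusted p of 0.235. There 4 of 8 AU-NS rats lay above every AI-NS rat and 5 of 7 AI-NS rats below every AU-NS rat. The difference was 1.01 (2.01-fold, 95% interval 1.27 to 3.18-fold, SE 0.31), against 0.02 after S training (95% interval 0.541 to 1.89-fold). The interaction of phenotype and task, which tests whether those differ, gave -0.99 with an adjusted p of 1 in limma (unadjusted p = 0.0865). This probeset moved with the RNA controls (r = -0.61, above), whose AU minus AI difference was -0.18 after NS and -0.11 after S training. The Gapdh and beta-actin covariate turned its pooled difference to -0.17, and RNA quality and phenotype cannot be told apart here.

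The tasks share no rats in the phenotype comparisons, and 23 of 31 genes had the same sign in both, 16 above and 7 below 0, where 62.7% of all 9037 genes had the same sign. Scn8a was at 0.32 after S training and at 0.29 after NS training. Trpv2, a calcium-permeable channel, went from 0.25 after S training to -0.06 after NS training, with an interaction of 0.31 (SE 0.17, limma, adjusted p = 1). Its mean of 5.67 over the arrays lay near the smallest probeset mean of 5.00. The Trpv2 medians after S training were 5.77 in AU-S and 5.62 in AI-S, and AU-S replicate 3 stood high at 6.48. The interaction passed for 0 members, with 0 at an unadjusted p under 0.05 against 2.5% of all genes, and 0% of probesets passed. Its 95% intervals were wide, reaching from 0.618 to 1.05-fold for Cacng3 and from 0.983 to 1.57-fold for Trpv2.

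**Figure D5:**
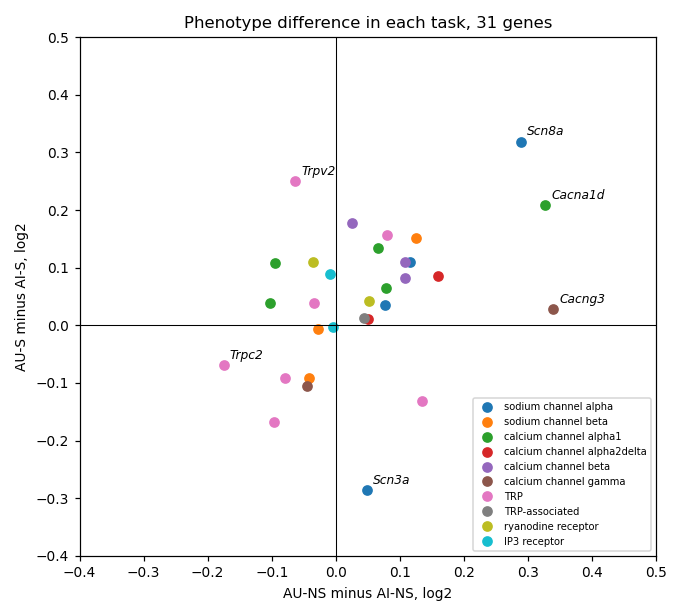
AU minus AI difference in log2 signal after S training (vertical axis) against the same difference after NS training (horizontal axis) for the 31 genes, coloured by role class, with labels for 6 genes picked after their values were seen. Points in the upper right and lower left corners, 23 of 31, have the same sign in both tasks.

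The task comparisons ask whether channel levels differed with the training, within a phenotype. limma called 0 members in AI-S against AI-NS and 0 in AU-S against AU-NS, and SAM called 0 in each. Both tests called 0% of all probesets in either comparison. At an unadjusted p under 0.05 limma marked 1 member in AI rats and 5 in AU rats, 3 of these higher after S training and 2 lower, against 4.42% and 8.07% of all genes. No rat enters both comparisons, and 26 of 31 genes had the same sign in each, 12 above and 14 below 0, where 63.2% of all genes did.

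Cacnb1, a beta subunit best known from muscle and also made in brain, was marked in both. In AU rats it ran from 9.0 to 9.31 with a median of 9.17 after S training and from 8.85 to 9.15 with a median of 8.96 after NS training, and 5 of 8 AU-S rats lay above every AU-NS rat. In AI rats it ran from 8.75 to 9.30 with a median of 9.10 after S training and from 8.69 to 9.21 with a median of 8.84 after NS training. The S minus NS difference was 0.17 in AU rats (1.13-fold, 95% interval 1.04 to 1.22-fold, SE 0.06, limma, adjusted p = 0.605). In AI rats it was 0.20 (1.15-fold, 95% interval 1.01 to 1.3-fold, SE 0.09, limma, adjusted p = 0.862).

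In AU rats the brightest Cacna1a probeset was 0.26 higher after S training (SE 0.10, limma, adjusted p = 0.605) and Cacnb3 0.20 (SE 0.09, adjusted p = 0.606). Scn1a differed by -0.13 (SE 0.05, adjusted p = 0.605), with every AU-S rat below the AU-NS mean, and Cacna2d3 by -0.14 (SE 0.06, adjusted p = 0.606). In AI rats these 4 differences were 0.12, 0.05, -0.09 and -0.10 in the same order. None passed, and the other probesets of Cacna1a were at -0.17 and -0.56 in AU rats, on the other side of 0 from the brightest one.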

How the data were processed

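Per the labels and the methods, total RNA from CA3 was hybridised to Affymetrix rat expression arrays, and the authors made log2 values with gcRMA (version not given in the sources used here). They left out 1 AI-NS array. The deposited log2 values hold 16204 probesets with means of at least 5, so the limit of 4 on the mean removed 0. Precision is limited by the number of arrays, since there are no counts. Of the probesets 12242 had 1 gene name in the platform annotation, 293 several and 3669 none here.

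Groups and replicate numbers came from the sample titles. limma 3.58.1 in R 4.3.3 (lmFit, eBayes, two-sided) was run over all probesets with Benjamini-Hochberg adjustment, at 0.05 for the pooled comparison and 0.1 otherwise. SAM was coded by hand with 100 permutations and a constant set to the median pooled standard error, a choice made after the data were seen. Permutation tests were two-sided and used SciPy 1.17.1, exact within a task and with 100000 resamples otherwise. The scripts were tested on simulated data. Role classes, partner genes and markers were listed by hand. Genes named at their brightest probeset are those past a threshold and the 3 of each class with the smallest pooled adjusted p; any others were chosen after their values were seen. The members and lists were chosen with earlier results of these data known. Some genes of the module are not reported here. Correlations used values less their group mean, and those with the RNA controls were adjusted over the 16200 probesets outside the measure. Alternatives were priors, filters, scalings, array weights, a replicate block, covariates for RNA quality or dissection, SAM, a fit of all 4 groups, task as a term and leaving out each array.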

Additional observations from a re-analysis of the deposited data

Results flagged for a closer look

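In 20 of the 164 sets of values examined (41 probesets in 4 groups, 12.2%), 1 rat lay far from the rest of its group by Dixon's criterion, which chance meets in about 1 of 20 groups. AI-S replicate 7 was high at Cacna1d (8.92, next 8.21), Scn8a (6.04, next 5.10) and the dim Cacna1c probeset (5.35). AI-NS replicate 4 was high at Itpr1 (13.32), Trpc1 (8.77) and the second Trpm7 probeset (8.87) and low at the dim Cacna1c probeset (4.48). AU-S replicate 1 was high at Scn2a (11.83), Scn3b (13.77) and the dim Cacna1c probeset (5.73). AU-NS replicate 1 was high at Trpm7 (11.62) and low at Cacng3 (8.24). Scn3a had 1 low rat in each of AI-S (replicate 2, 6.73), AU-NS (replicate 6, 7.53) and AI-NS (replicate 5, 6.61). The others were Trpv2 in AU-S replicate 3 (6.48, high) and AU-NS replicate 5 (5.12, low), Trpc6 in AU-NS replicate 2 (6.78, low), Trpv5 in AI-NS replicate 8 (7.50, high) and Itpr2 in AI-S replicate 5 (6.53, high). The causes were not tested.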

How the results depend on the processing

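Over the 7 counts examined, the number of members called stayed at 0 in 91 settings other than leaving out an array and rose in 1. That was SAM over all 41 pooled probesets, which called 1, Scn2b 1369311_at. The total over all probesets, 893 in the pooled comparison as reported, ranged from 0 to 1287 over the same settings and from 621 to 1181 when 1 array was left out. For AU-S against AI-S, 67 as reported, these ranges were 0 to 551 and 5 to 448, and for AU-NS against AI-NS, 0 as reported, they were 0 to 163 and 0 to 208 (the highest without AI-S replicate 7 and without AI-NS replicate 3), while the task comparisons and the interaction stayed at 0. Leaving out 1 array gave 0 to 1 genes and 0 to 2 probesets in the pooled comparison, above 0 only without AI-S replicate 7, and 0 in the other comparisons. Without AI-S replicate 7, Cacna1d differed by 0.33 (limma, adjusted p = 0.0245). Over the 41 probesets (the brightest of its gene where no number is given), the Gapdh and beta-actin covariate turned the pooled sign at 15: Cacna1a (0.066), Cacna1a 1386939_a_at (-0.17), Cacna1h (-0.14), Cacna2d3 (-0.054), Cacng2 (0.0027), Cacng2 1375735_at (-0.013), Itpr1 (-0.0059), Ryr2 (-0.024), Ryr2 1382775_at (-0.065), Ryr3 (-0.031), Scn3b 1370850_at (-0.0047), Trpc1 (-0.045), Trpc4ap (-0.0022), Trpc6 (0.019) and Trpm7 1369059_at (-0.027). The hexokinase covariate turned it at 14: Cacna1a (0.046), Cacna1a 1386939_a_at (-0.11), Cacna1d (-0.034), Cacna1h (-0.0804), Cacna2d3 (-0.042), Cacng2 (0.12), Cacng2 1375735_at (-0.013), Itpr1 (-0.021), Ryr2 (-0.048), Ryr2 1382775_at (-0.089), Ryr3 (-0.064), Scn8a (-0.032), Trpc1 (-0.0504) and Trpm7 1369059_at (-0.0499). Quantile normalization turned Cacna2d3 (-0.0011) and Trpc1 (-0.0024), median centring Trpc1 (-0.0046), array weights Itpr2 (0.0028) and Trpc6 (0.017), the dissection covariates Trpc1 (-0.0086) and Trpc6 (0.12), the replicate block Trpc6 (0.012) and the fit of all 4 groups Trpc6 (0.00094). Leaving out single arrays turned 6 probesets, Cacna1h (range -0.059 to 0.0895), Cacng2 1375735_at (-0.012 to 0.043), Itpr2 (-0.017 to 0.023), Ryr2 1382775_at (-0.0088 to 0.058), Trpc1 (-0.013 to 0.052) and Trpc6 (-0.082 to 0.044). The cause of each was not tested. Scaling moved the median difference of all probesets from 0.0072 to -0.0056 by median centring and to -0.0081 by quantile normalization.

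Same-numbered rats of different groups had a median correlation of -0.08 (7 of 45 pairs over 0.1), against 0.02 for other pairs. No test of this was run, and whether same-numbered rats were handled together is not known. With the replicate number as a block, 0 members were called in every comparison, and the pooled total fell to 591. A mean of at least 6 took out Scn8a, Trpc2 and Trpv2 and left 28 of the 31 genes, with pooled differences from -0.13 to 0.26. The number of arrays limits the precision, and within a task 95% intervals reached past 1.5-fold for several members.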
